A study of Mus musculus with 8 samples.

Results

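The transcripts described here are the cold-inducible RNA-binding protein genes Cirbp and Rbm3 and the heat-shock genes Hspa1a, Hspa1b, Hsph1, Dnajb1, Hspb1, Hsp90aa1, Hspa8 and Hspd1, which make up 10 of the 29968 genes counted in mouse pancreatic tumors. The list was chosen by the level of Cirbp, which was lower in each C3-/- tumor than in any WT tumor, and the other 9 genes were added because they belong to the same temperature and stress responses. The difference in Cirbp between genotypes is therefore described without a test. The other 9 genes were judged by a fit over the whole table.

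The series asked how tumors differ when the host lacks complement component 3 (C3). RNA was sequenced from 8 tumors, 4 grown in WT male C57BL/6J mice and 4 grown in male C3-/- mice. Every mouse was 12 weeks old and received an injection into the tail of the pancreas of 250000 KPC FC1245 cells, a pancreatic cancer line taken from a tumor of a mouse with a Pdx-1-driven Cre, in 50 μL of PBS. The implanted cells carry an intact C3 gene in both groups, so the C3-/- tumors are cancer cells with C3 in a host without it, and each group rests on the same cell line. C3 itself measured 210 to 426 CPM in WT tumors and 100.3 to 134 CPM in C3-/- tumors. CPM denotes counts scaled to a common total per tumor (TMM). The total count per tumor was 13266029 to 23354212. The 6 tumor epithelium markers (Krt8, Krt18, Krt19, Epcam, Cdh1 and Sox9) summed to 4766 to 8868 CPM in all 8 tumors. Other tissue was unevenly present. Skeletal muscle markers (11 genes) summed to 15.4 CPM in WT replicate 2, 30.7 in WT replicate 3 and 24.1 in C3-/- replicate 2, against 1705 to 4273 CPM in the other 5 tumors, and acinar markers (9 genes) to 1830 CPM in C3-/- replicate 1 against 39.2 to 510 CPM elsewhere. Erythroid markers (5 genes) were highest in WT replicate 3 and C3-/- replicate 1, at 2096 and 1124 CPM, and adipocyte and islet markers in WT replicate 2, at 385 and 72.3 CPM. Hepatocyte markers (5 genes) summed to 76.1 CPM in WT replicate 4 and to 11.5 to 26.1 CPM in the other tumors. The remaining marker lists summed to 555 to 1222 CPM (leukocytes), 3029 to 8022 CPM (fibroblasts), 112 to 209 CPM (endothelium) and 363 to 569 CPM (mesothelium). All 10 genes passed the filter on low counts.

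Cells meet heat and unfolded protein with the heat-shock response, in which the transcription factor HSF1 binds heat-shock elements and switches on chaperone genes. The chaperones work in teams: HSP70 proteins hold unfolded stretches, J-domain proteins such as DNAJB1 load them and HSP110 proteins such as HSPH1 release them, while HSP90 and HSP60 finish the folding of selected proteins and small heat-shock proteins such as HSPB1 keep damaged ones soluble. Mild cooling acts the other way, raising CIRBP and RBM3, RNA-binding proteins with a single RNA recognition motif that bind and stabilise other transcripts.

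The inducible pair Hspa1a and Hspa1b shows how little separates some of these genes. Their upstream sequences are shown because they are nearly identical and hold the same heat-shock element match. Printed from RefSeq (GRCm38.p6) are the 250 bases before each start, 5′ to 3′ on the strand of the gene, with the match to the 2-unit heat-shock element in capitals.
Hspa1a (chr17:34972157-34972406, minus strand): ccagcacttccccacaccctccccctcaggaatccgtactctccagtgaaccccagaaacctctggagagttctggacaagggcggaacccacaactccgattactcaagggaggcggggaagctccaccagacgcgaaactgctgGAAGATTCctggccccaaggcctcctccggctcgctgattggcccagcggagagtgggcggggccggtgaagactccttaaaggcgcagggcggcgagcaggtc
Hspa1b (chr17:34959239-34959488, minus strand): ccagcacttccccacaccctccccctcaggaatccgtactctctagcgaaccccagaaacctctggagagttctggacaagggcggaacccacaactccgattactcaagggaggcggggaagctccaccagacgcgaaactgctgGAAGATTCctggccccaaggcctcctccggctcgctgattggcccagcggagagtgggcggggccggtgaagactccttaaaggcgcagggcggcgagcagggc
They differ at 3 of 250 bases, and the longest identical run is 201 bases.

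Of the 10 genes, 7 had an entry in the RefSeq promoter table, with 11 promoters between them. Rbm3, Hsp90aa1 and Hspa8 had none. The 250 upstream bases were searched on both strands for the 2-unit heat-shock element (GAANNTTC or TTCNNGAA, present before at least 1 start of 14.5% of all 27025 genes in the table), for its 3-unit form (GAANNTTCNNGAA or TTCNNGAANNTTC, 0.514%), which contains the shorter motif, and for TCCCCGCC or its reverse complement GGCGGGGA (5.37%), the element described in the Cirbp promoter as responding to mild cold. The shorter heat-shock motif was present upstream of 5 of the 6 heat-shock genes in the table, all but Dnajb1, and the longer one upstream of Hspd1 alone, before the downstream of its 2 starts. The TCCCCGCC element was found before the first start of Cirbp and also before Hspa1a and Hspa1b. The heat-shock matches of the other genes and the TCCCCGCC match of Cirbp are shown in capitals with 6 bases on either side, or fewer at the end of the 250 bases, since they are the letters behind these counts.
Cirbp (chr10:80167589-80167605, plus strand): ctgTCCCCGCCtcctag
Hsph1 (chr5:149636356-149636375, minus strand): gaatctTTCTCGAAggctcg
Hspb1 (chr5:135887796-135887835, plus strand): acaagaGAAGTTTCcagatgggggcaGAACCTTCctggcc
Hspd1 (chr1:55088053-55088082, minus strand): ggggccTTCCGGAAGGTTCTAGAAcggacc
Hspb1 carried 2 separate matches and Hspd1 an overlapping pair of 3-unit matches. These are matches of letters, and binding was not measured.

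Cirbp (ENSMUSG00000045193, chromosome 10 from 80001819 to 80008620 in mm39, plus strand) encodes the cold-inducible RNA-binding protein. It measured 57.7, 54.9, 64.3 and 61.6 CPM in WT replicates 1 to 4 and 39.3, 40.7, 22.7 and 23.8 CPM in C3-/- replicates 1 to 4. The highest C3-/- value, 40.7 CPM in replicate 2, lay below the lowest WT value, 54.9 CPM in replicate 2, and that gap is what chose the list. The means were 59.6 ± 4.18 CPM in WT and 31.6 ± 9.68 CPM in C3-/- tumors (SD, n = 4 each), so the C3-/- mean was 53.0% of the WT mean and the log2 fold change was -0.92 (SE 0.20). Among all 16610 genes tested, 1.45% were lower in C3-/- tumors without overlap, a share that holds Cirbp by construction. Within genotypes the values were unevenly spread. The 4 WT tumors differed by an SD of 0.10 on the log2 scale, and the 4 C3-/- tumors, of which replicates 1 and 2 lay at 39.3 and 40.7 CPM and replicates 3 and 4 at 22.7 and 23.8 CPM, by an SD of 0.45. The lower pair, replicates 3 and 4, held 43.9 and 39.2 CPM of acinar markers and 1705 and 3904 CPM of muscle markers, and the upper pair, replicates 1 and 2, held 1830 and 66.9 CPM of acinar and 2110 and 24.1 CPM of muscle markers. With the muscle markers as a covariate the log2 fold change of Cirbp was -0.88, and with the acinar markers -0.76. The 4 mesothelial markers were all lower in C3-/- tumors (median log2 fold change -0.95). Msln, which makes up most of their sum, lay at -0.08, while the low Upk3b (2.43 to 4.85 CPM in WT and 0.88 to 2.34 CPM in C3-/- tumors) and Lrrn4 (1.55 to 3.47 and 0.78 to 1.31 CPM) did not overlap between genotypes, as Cirbp did not. All 5 hepatocyte markers were also lower, Ahsg alone without overlap (0.87 to 7.32 CPM in WT and 0.11 to 0.42 CPM in C3-/- tumors). The 5 erythroid and the 2 tested adipocyte markers were lower with overlap. Of the 7 leukocyte markers, 6 were higher and Cd68 was lower. Only Ptprc, the common leukocyte antigen, was without overlap (20.1 to 22.3 and 23.3 to 44.0 CPM). The leukocyte sum overlapped, at 692 to 892 CPM in WT and 555 to 1222 CPM in C3-/- tumors. Of all genes tested, 3.73% did not overlap in either direction. The adjusted p of each of these markers was 0.933 or more in edgeR, and the part of these tissues in the Cirbp values was not tested. In bulk tumor RNA, fewer cells of a type and less RNA per cell cannot be told apart.

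**Figure D1:**
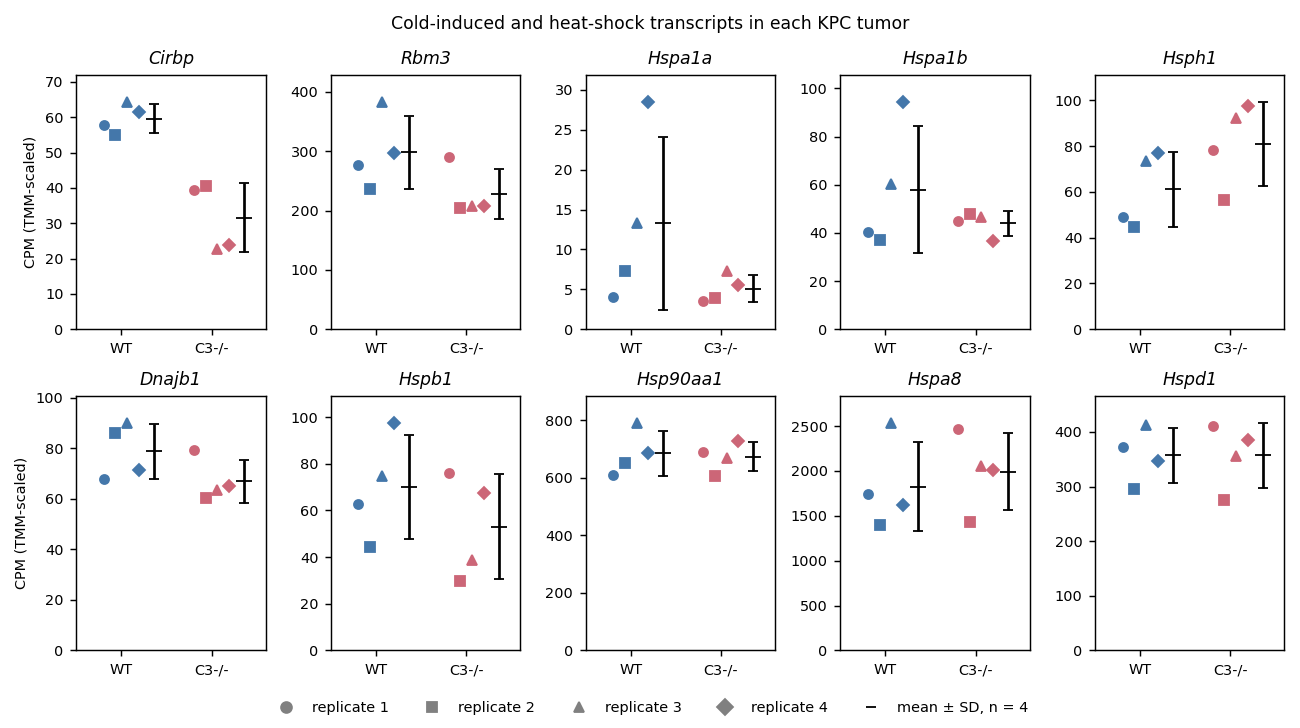
Level of each of the 10 transcripts in every tumor (CPM, linear axes from 0), WT in blue and C3-/- in red, with marker shapes for replicates 1 to 4 and bars for the mean ± SD (n = 4). Cirbp is the only panel in which the genotypes do not overlap, the C3-/- tumors ending at 40.7 CPM and the WT tumors beginning at 54.9 CPM.

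Rbm3 (ENSMUSG00000031167, X chromosome from 8005214 to 8012119, minus strand) encodes the closest cold-inducible relative of CIRBP. It measured 277, 236, 383 and 296 CPM in the WT tumors, in replicate order, and 290, 204, 208 and 208 CPM in the C3-/- tumors. Of the C3-/- tumors, 3 lay below every WT tumor, while replicate 1 lay among them, so the genotypes overlapped. The means were 298 ± 62.3 and 228 ± 41.9 CPM (SD, n = 4 each). On the log2 scale this is a difference of -0.39 (SE 0.18), for which edgeR's quasi-likelihood test over all genes gave an unadjusted p of 0.0551 and an adjusted p of 0.971 (Benjamini-Hochberg). C3-/- replicate 1 is also the tumor with 1830 CPM of acinar markers. The log2 fold change was -0.53 without this tumor, -0.24 without WT replicate 3, and -0.22 with the acinar markers as a covariate. Rbm3 overlaps Rbm3os on the opposite strand, and whether the counts kept strands apart is not stated.

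Cirbp and Rbm3 were set side by side across the tumors, beside the pair Hspa1b and Hspa1a. Because the genotypes do not overlap in Cirbp, no correlation over all 8 tumors is given for it. After the values of each genotype were centred on their mean, r between Cirbp and Rbm3 on the log2 scale was 0.47 (n = 8 tumors). The same centred r of Cirbp with the heat-shock genes ran from -0.40 with Hsph1 to 0.29 with Hspa1b. In the C3-/- tumors the 2 with the lowest Cirbp, replicates 3 and 4, had the same 208 CPM of Rbm3 as each other, and replicate 2, with 40.7 CPM of Cirbp, had 204 CPM of Rbm3.

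**Figure D2:**
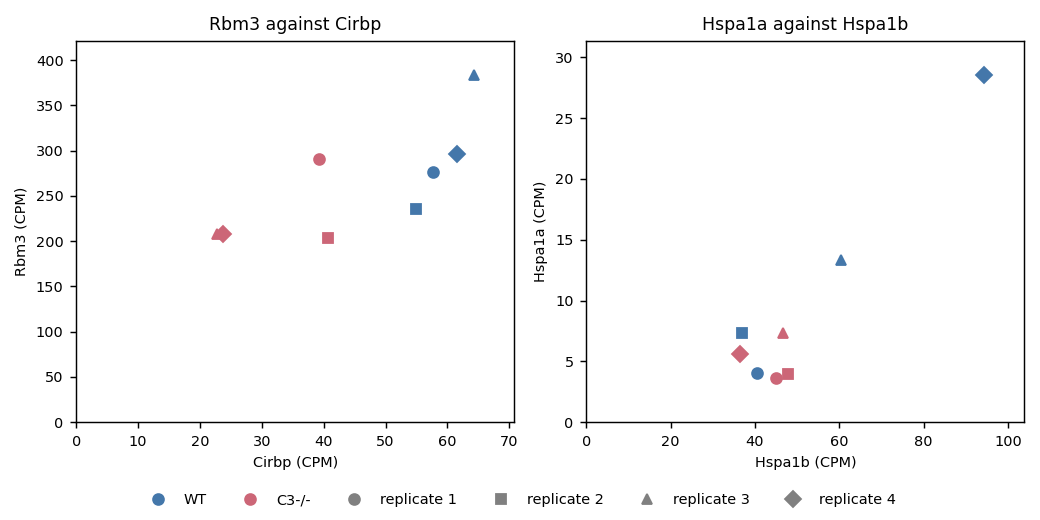
Rbm3 against Cirbp (left) and Hspa1a against Hspa1b (right), each point being 1 tumor (CPM, linear axes from 0), WT in blue and C3-/- in red with a marker shape per replicate. C3-/- replicate 1 stands apart from the other C3-/- tumors at 290 CPM of Rbm3, and WT replicate 4 stands apart at 28.5 CPM of Hspa1a and 94.5 CPM of Hspa1b.

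Hspa1a and Hspa1b, neighbours on the minus strand of chromosome 17 (35188166 to 35191132 and 35175412 to 35178214), encode the inducible HSP70. Hspa1a measured 4.04, 7.31, 13.3 and 28.5 CPM in the WT tumors and 3.60, 3.92, 7.31 and 5.58 CPM in the C3-/- tumors. WT replicates 3 and 4 lay above all C3-/- tumors, and WT replicates 1 and 2 lay within their range. Its log2 fold change, -1.39 (SE 0.53), was the widest of the 10, and edgeR's test gave it an unadjusted p of 0.0244 and an adjusted p of 0.965. It was -0.69 without WT replicate 4, which held 670 of the Hspa1a counts against 65 to 177 in the other 7 tumors. Cirbp lay at -0.90 without that tumor, so the place of Hspa1a as the widest rests on WT replicate 4.

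Hspa1b, the more abundant copy, measured 40.4, 36.9, 60.3 and 94.5 CPM in the WT tumors and 44.9, 47.9, 46.6 and 36.5 CPM in the C3-/- tumors. WT replicates 3 and 4 lay above all C3-/- tumors, and WT replicates 1 and 2 lay within their range. On the log2 scale C3-/- tumors differed by -0.40 (SE 0.27), with p adjusted by edgeR to 0.993, and by -0.06 without WT replicate 4. That tumor also held the most muscle marker RNA, 4273 CPM, and 76.1 CPM of hepatocyte markers. With the muscle markers as a covariate the log2 fold change was -1.50 for Hspa1a and -0.43 for Hspa1b, and the part of the hepatocyte RNA was not tested.

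Since 39.7% of the 150-base windows of the Hspa1a transcript also occur in other genes, Hspa1b and Hspa1l, reads can be moved from one copy to the other, and the pair was also summed. The sum measured 44.5, 44.2, 73.7 and 123 CPM in the WT tumors and 48.5, 51.9, 54.0 and 42.1 CPM in the C3-/- tumors. The means were 71.3 ± 37.1 and 49.1 ± 5.20 CPM (SD, n = 4 each), and the difference of -0.41 on the log2 scale gave p = 0.371 in an exact two-sided permutation test, in which 70 splits allow no p below 0.0286. Without WT replicate 4 it was -0.10. Hspa1a contributed 9.09, 16.5, 18.1 and 23.2% of the sum in the WT tumors and 7.43, 7.56, 13.6 and 13.3% in the C3-/- tumors, so the split between the copies also varied among tumors. Over all 8 tumors the copies gave Pearson r = 0.83 (exact permutation p = 0.0203) and Spearman rho = 0.48 (exact permutation p = 0.243). Benjamini-Hochberg adjustment gave 0.142 for r and 0.977 for rho over the 7 relations of Hspa1b with the other heat-shock genes, a family set after the data were seen, and 0.312 and 0.684 over 16 relations that also held those of Cirbp, whose values chose the list. Without WT replicates 4 and 3, the tumors farthest from the median, r was -0.37, so the relation rests on those tumors. Of the 7 relations of Hspa1b, 0 had an adjusted p below 0.05 in either family (exact permutation).

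Hsph1 (chromosome 5, 149537752 to 149559841, minus strand), the HSP110 nucleotide exchange factor of HSP70, had values of 49.1, 44.7, 73.4 and 77.2 CPM in the WT tumors and 78.2, 56.4, 92.2 and 97.4 CPM in the C3-/- tumors. Here 3 of 4 C3-/- tumors lay above all WT tumors, and replicate 2 lay within the WT range. Among the 10 genes it was the largest difference towards C3-/- tumors, at 0.41 on the log2 scale (SE 0.22), where edgeR's test gave an unadjusted p of 0.0968 and an adjusted p of 0.973. Its partner Dnajb1 (chromosome 8, 84334822 to 84339282, plus strand), the J-domain protein that feeds HSP70, lay on the other side of 0. It had 67.9, 86.2, 90.1 and 71.6 CPM in the WT tumors and 79.5, 60.3, 63.4 and 65.1 CPM in the C3-/- tumors, and differed by -0.23 on the log2 scale (SE 0.14), an adjusted p of 0.985 by edgeR. For Dnajb1 it was again C3-/- replicate 1 that lay among the WT values, the other 3 C3-/- tumors lying below all of them.

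Hspb1 (chromosome 5, 135916773 to 135918417, plus strand), the small heat-shock protein known in mice as HSP25, had 62.9, 44.5, 74.7 and 97.5 CPM in the WT tumors and 76.2, 29.5, 38.8 and 67.6 CPM in the C3-/- tumors. Replicate 2 was the lowest tumor of either genotype, and the genotypes overlapped broadly. The log2 difference of -0.40 (SE 0.32), whose edgeR adjusted p was 0.999, became -0.19 without WT replicate 4, -0.20 without C3-/- replicate 2 and -0.63 without C3-/- replicate 1. It was -0.60 with the muscle markers as a covariate and -0.21 with the acinar markers. Of the 150-base windows of Hspb1, 32.0% also occur in the pseudogene Hsp25-ps1.

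The 3 abundant chaperone genes differed least between genotypes. Hsp90aa1 (chromosome 12, 110657039 to 110669162, minus strand), the stress-inducible cytosolic HSP90, had 611, 652, 791 and 687 CPM in the WT tumors and 691, 607, 668 and 729 CPM in the C3-/- tumors. Its means were 685 ± 77.3 and 674 ± 51.0 CPM (SD, n = 4 each), and the log2 fold change was -0.02 (SE 0.13). Hspa8 (chromosome 9, 40712280 to 40721383, plus strand), the constitutive HSP70, had 1738, 1402, 2535 and 1624 CPM in the WT tumors and 2471, 1432, 2053 and 2008 CPM in the C3-/- tumors. The highest tumor, WT replicate 3, and the next, C3-/- replicate 1, were those with the most erythroid marker RNA, whose part in the values was not tested. The log2 fold change of 0.13 (SE 0.22) moved to 0.01 without C3-/- replicate 1, to 0.02 without WT replicate 2, to 0.33 without WT replicate 3 and to 0.28 with the acinar markers as a covariate. Hspd1 (chromosome 1, 55116994 to 55127402, minus strand), the mitochondrial HSP60, had 372, 295, 413 and 348 CPM in the WT tumors and 412, 275, 357 and 386 CPM in the C3-/- tumors. Both of its means rounded to 357 CPM. The edgeR adjusted p was 0.999 for each of these 3 genes, and a p of this size does not show that the genotypes were alike. Transcripts of other genes share 48.0% of the windows of Hspa8, 30.1% of those of Hsp90aa1 and 13.3% of those of Hspd1, and Hspd1 overlaps Hspe1 on the opposite strand, so these counts carry that uncertainty.

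**Figure D3:**
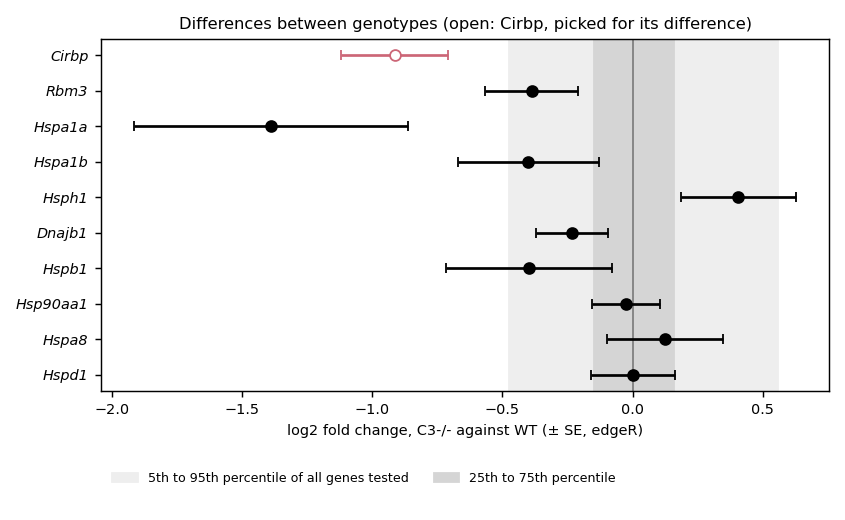
Log2 fold change of each transcript, C3-/- against WT, from the edgeR fit over 16610 genes (points, with bars of ± SE), the open point being Cirbp, whose difference chose the list, and the shaded bands the 5th to 95th and 25th to 75th percentiles of all genes. Cirbp lies at -0.92 and Hspa1a at -1.39, Hsph1 lies highest at 0.41, and Hspd1 lies at 0.00.

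Counted together, 0 of the 9 genes other than Cirbp had an adjusted p below 0.05 in edgeR's test, as had 0.0% of all 16610 genes. The smallest adjusted p among the 9 was 0.965. Hspa1a alone had an unadjusted p below 0.05 in edgeR, 1 of 9 against 5.11% of all genes. In DESeq2 the unadjusted p was below 0.05 for Hspa1a (0.00282, adjusted 0.385) and also for Rbm3 (0.0409, adjusted 0.870). DESeq2 called 0 of the 9, against 0.0848% of the 18864 genes for which it gave an adjusted p. With limma-voom 0 of the 9 and 0 genes of the whole table were called. None of the 9 had genotypes without overlap, which 3.73% of all genes had in one direction or the other. Of the 9, 3 were higher (Hsph1, Hspa8 and, by less than 0.01, Hspd1) and 6 lower in C3-/- tumors, and their median log2 fold change was -0.23. For the 8 heat-shock genes the counts were 3 higher and 5 lower with a median of -0.13. Over all genes tested, 8304 were higher and 8306 lower with a median of 0.00, 5% of them lay below -0.48 and 5% above 0.56.

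Levels were compared between the genes on FPKM, the authors' values scaled by gene length and total count. The order of the mean over 8 tumors was Hspa8 (439 FPKM), Hsp90aa1 (171), Hspd1 (134), Hspb1 (59.0), Rbm3 (55.4), Dnajb1 (22.6), Hspa1b (18.0), Cirbp (17.4), Hsph1 (9.68) and Hspa1a (3.07). Hspa8 lay at percentile 99.7 of the genes tested and Hspa1a at percentile 38.9. Hspb1 exceeded Rbm3 in 4 of 8 tumors, so these neighbours were not separated beyond their spread. The place of Cirbp in the order differed between the genotypes, whose Cirbp levels chose the list. In WT tumors Cirbp (20.9 to 24.4 FPKM) lay above Hsph1 (6.10 to 10.5 FPKM) in all 4 tumors and above Hspa1b (13.1 to 33.3 FPKM) in all but replicate 4. In C3-/- tumors Cirbp (8.66 to 15.4 FPKM) lay above Hsph1 (7.65 to 13.2 FPKM) in replicates 1 and 2 and below it in replicates 3 and 4 and lay below Hspa1b (12.8 to 16.9 FPKM) in all 4. Hspa8 exceeded Hsp90aa1, Hspd1 exceeded Hspb1 and Rbm3 exceeded Dnajb1 in all 8 tumors with no overlap of their ranges.

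**Figure D4:**
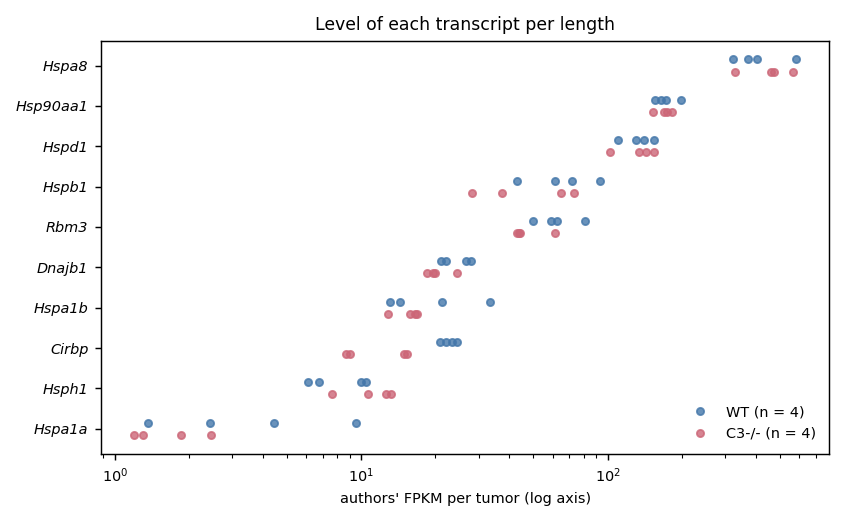
Level of each transcript per length in every tumor (the authors' FPKM, log axis), ordered by the mean, WT in blue and C3-/- in red. Hspa8 spans 323 to 583 FPKM at the top and Hspa1a spans 1.20 to 9.49 FPKM at the bottom, the widest relative range of the 10.

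The genes also differed in how far tumors of the same genotype lay apart. The SD of log2 CPM within genotypes was 0.90 for Hspa1a, 0.57 for Hspb1, 0.46 for Hspa1b, 0.38 for Hsph1, 0.35 for Hspa8 and 0.33 for Cirbp, and 0.27 or less for Rbm3, Hspd1, Dnajb1 and Hsp90aa1. The median over all genes tested was 0.31, and 6 of the 10 genes lay above it. Counts of low genes vary more, so each gene was also placed among the 1661 genes of the same bin when all genes were cut into 10 equal bins by mean level, where 8 of the 10 genes lay above the median of their bin. There Hspb1 lay at percentile 98.6, Hspa1a at 96.0, Hspa1b at 93.4, Hsph1 at 87.7 and Hspa8 at 81.7, Cirbp lay at 77.5, Rbm3 at 64.7 and Hspd1 at 53.2, and Hsp90aa1 lay at 19.9 and Dnajb1 at 36.7. The SD of Hspa1a was 1.19 in WT and 0.46 in C3-/- tumors, and that of Hspa1b 0.62 and 0.18. Without WT replicate 4 the WT values were 0.85 for Hspa1a and 0.38 for Hspa1b. For Cirbp the C3-/- tumors were the more spread.

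The genes whose values followed Cirbp and Hspa1b most closely were looked for among 10382 genes with a mean of at least 10 CPM, by r of log2 CPM centred within genotype over 8 tumors. For Cirbp they were Scmh1 (r = 0.97), a Polycomb protein gene, Bcdin3d (0.94), an RNA methyltransferase gene, Erlec1 (0.92), a lectin gene of the endoplasmic reticulum, Alkbh3 (0.92), a nucleic acid demethylase gene, and Six5 (0.92), a homeobox gene. Rbm3 at 0.47 was not among them. For Hspa1b they were mt-Rnr1 (0.97), the mitochondrial 12S ribosomal RNA, Dync1li1 (0.93), a dynein chain gene, Gtf2e1 (0.91), a general transcription factor gene, Gkap1 (0.91) and Hspbap1 (0.90). Cirbp varied by an SD of 0.10 in WT and 0.45 in C3-/- tumors on the log2 scale, so its r rest largely on the C3-/- tumors. Hspa1b varied by 0.62 in WT and 0.18 in C3-/- tumors, so its r rest largely on the WT tumors. With 8 tumors and this many genes compared, r above 0.9 was reached by 8 genes for Cirbp and by 5 for Hspa1b. How many genes would reach it by chance was not tested. The genes are named as a description, and shared regulation was not tested.

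The wider pathways were described with 12 lists of 138 gene names, of which 135 were tested. Bmal1 and Arntl are names of the same gene, which was tested as Arntl. In edgeR 0 of the 135 had an adjusted p below 0.05 (smallest 0.933), and 0 were called by DESeq2. An unadjusted p below 0.05 was found for 8 of them, 5.93% against 5.11% of all genes, and the genotypes did not overlap for 5, 3.70% against 3.73% of all genes. The list genes divided into 60 higher and 75 lower in C3-/- tumors, and their median lay at -0.02 on the log2 scale.

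The largest of these differences in the heat-shock regulators was that of Hsf1, the master activator of the response. It measured 55.6, 46.4, 43.1 and 44.5 CPM in the WT tumors and 64.8, 61.9, 69.8 and 71.4 CPM in the C3-/- tumors. The lowest C3-/- value, in replicate 2, exceeded the highest WT value, in replicate 1, and the means were 47.4 ± 5.64 and 67.0 ± 4.38 CPM (SD, n = 4 each). The log2 fold change was 0.50 (SE 0.12), with an unadjusted p of 0.00203 that became 0.933 in edgeR's adjustment over all genes. The related factor Hsf2 lay at -0.10 and the HSF1-binding Hsbp1 at 0.04, and the 4 genes of that list, 2 higher and 2 lower, had a median of -0.03.

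Among the chaperones the other HSP70 and HSP110 genes were 8 higher and 3 lower (median 0.11). Among those with a mean of at least 10 CPM, Hspa2 (0.24) and Hyou1 (0.23), an ER chaperone gene, lay highest and Hspa9 (-0.16), the mitochondrial HSP70, and Hspa4l (-0.12) lowest. The other HSP90 genes were 2 higher and 1 lower, with Trap1 of the mitochondrion at 0.09 and Hsp90ab1, the constitutive cytosolic form, at -0.11. All 11 listed chaperonins and mitochondrial partners were lower (median -0.09), a list that held the proteases Lonp1 and Clpp but not Hspd1 (0.0013). They ran from Cct2 (-0.27) and Tcp1 (-0.26), subunits of the cytosolic chaperonin, to Hspe1 (-0.02), the HSP10 partner of Hspd1, and 0 of them passed the test. Their adjusted p was 0.971 or more in edgeR. J-domain genes were 6 higher and 6 lower (median -0.05), and co-chaperones 7 higher and 6 lower (median 0.00), with Chordc1, an HSP90 partner, at 0.34 and Bag3, which links HSP70 to small heat-shock proteins, at -0.22. ER stress genes were 7 higher and 8 lower (median -0.03), from Xbp1 (0.22) to Trib3 (-0.31).

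The small heat-shock genes other than Hspb1 were 1 higher and 4 lower (median -0.26, 5 of 6 tested). Cryab, a lens and muscle chaperone, measured 38.3, 26.6, 44.6 and 80.5 CPM in the WT tumors and 52.4, 15.7, 28.0 and 54.1 CPM in the C3-/- tumors. Hspb7, a heart and muscle member, measured 55.2, 3.62, 2.26 and 102 CPM in the WT tumors and 52.5, 2.69, 26.1 and 73.4 CPM in the C3-/- tumors. The 3 tumors with 15.4 to 30.7 CPM of muscle markers were the 3 with the lowest Hspb7, from 2.26 to 3.62 CPM. For Hspb1, of these 3 tumors WT replicate 2 (44.5 CPM) and C3-/- replicate 2 (29.5 CPM) were the lowest of their genotypes, while WT replicate 3 (74.7 CPM) was not.

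Around Cirbp, its hnRNP and RNA recognition motif relatives were 2 higher and 8 lower (median -0.11). Hnrnpd, an RNA-decay factor, lay at -0.30 and its relative Hnrnpdl at -0.26 (adjusted p 0.971 for each in edgeR), and Hnrnpa3 lay highest at 0.14. SR splicing factors and the CLK kinases that phosphorylate them, a group that responds to temperature, were 12 higher and 4 lower (median 0.08), with Tra2a at 0.39 (SE 0.11, adjusted p 0.933 in edgeR) and Srsf5 at -0.20. Clock genes, whose transcripts CIRBP is known to bind, were 5 higher and 10 lower (median -0.09). Per1 lay at -0.51 (SE 0.19, adjusted p 0.965 in edgeR), Cry2 at -0.44 and Clock at 0.09. Immediate early genes, which respond to handling of tissue, were 8 higher and 12 lower (median -0.03), from Nr4a1 (0.47) and Btg2 (0.41) to Klf6 (-0.43) and Atf3 (-0.46).

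**Figure D5:**
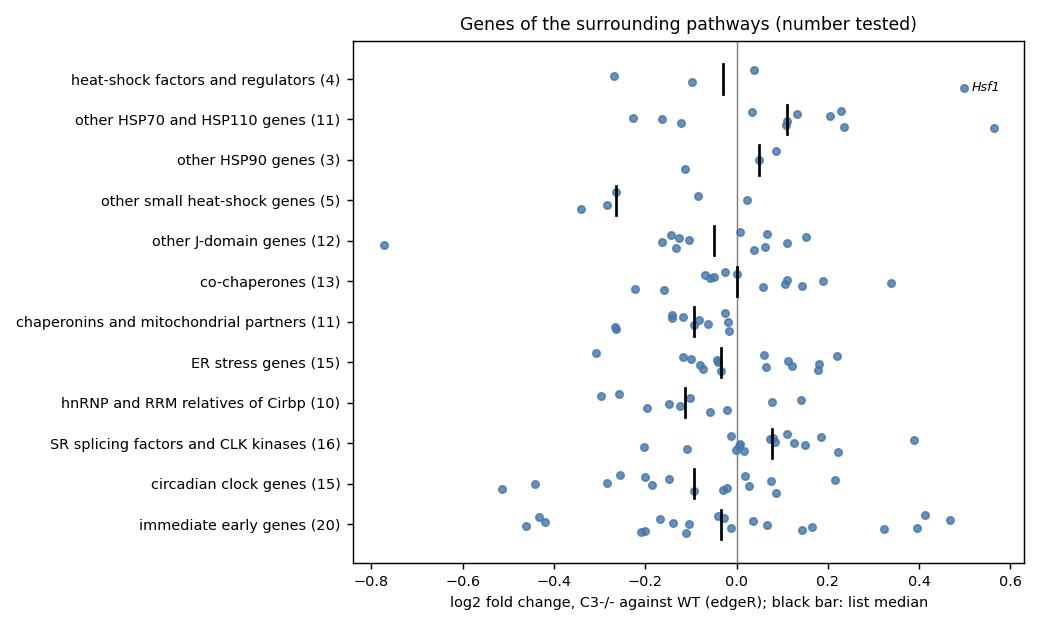
Log2 fold change, C3-/- against WT, of each of the 135 tested genes in the 12 pathway lists (points) with the median of each list (black bars). List medians lie between -0.26 for the small heat-shock genes and 0.11 for the HSP70 and HSP110 genes, and Hsf1 lies at 0.50.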

How the data were processed

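Tumor RNA of 4 WT and 4 C3-/- mice was poly-A selected and sequenced as read pairs. The authors deposited raw counts per gene (mm39) and FPKM per gene. The paper names STAR and HTSeq, while the submitters' processing notes list HISAT2 2.0.5 and DESeq2 1.20.0. The labels allow for directional or non-directional libraries, and the strand setting is not given in the sources used here. The authors' log2 fold changes, p-values, means and 8 columns of normalized counts were not used.

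Counts were tested with edgeR 4.0.16 in R 4.3.3 (filterByExpr with a minimum count of 10, TMM, glmQLFit and glmQLFTest, Benjamini-Hochberg over 16610 genes, called at 0.05), which was tested on simulated data. DESeq2 1.42.0, limma-voom (limma 3.58.1), other scalings and filters, marker covariates, the replicate block and each tumor left out were alternatives. Exact tests used log2(CPM + 0.1). Marker lists were summed as CPM. Motifs were searched in RefSeq promoters, which are of another build (GRCm38.p6) than the counts, and shared windows in GENCODE vM39 transcripts.

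The 10 genes, the 12 pathway lists and the marker lists were chosen with earlier results of these data known. All 10 genes are named, with values for genes among the 2 highest and the 2 lowest log2 fold changes of each pathway list (mean of at least 10 CPM) and the 5 genes most like Cirbp and like Hspa1b. The total count per tumor was 13266029 to 23354212, and 99.78% or more of it lay in the genes tested. Counts carry no molecular identifiers. Replicates are separate tumors, none of the 28 pairs being a repeat of 1 library (chi-square per gene of 15.0 or more).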

Additional observations from a re-analysis of the deposited data

Results flagged for a closer look

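Rbm3 in C3-/- replicate 1 stood apart from its group, at 290 CPM against 204 to 208 CPM in the other 3 C3-/- tumors. On the log2 scale the gap to the nearest of them was 0.94 of the range of the group, above the 95% limit of Dixon's test for 4 samples. This was the only such tumor in 24 groups of 4 examined, where chance gives about 1.2. The same tumor held 1830 CPM of acinar markers, against 39.2 to 66.9 CPM in the other C3-/- tumors.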

How the results depend on the processing

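In edgeR 0 genes of the whole table were called between genotypes. DESeq2 called 16, and leaving out 1 tumor at a time gave 0 to 4 in edgeR, the 4 arising without C3-/- replicate 1. The causes were not tested. The replicate numbers were not taken as pairs, since same-numbered tumors correlated at -0.03, 0.49, -0.36 and 0.59 in their deviations from the group means, and with the replicate number as a block 0 genes were called. In all 17 alternatives 0 of the 9 genes other than Cirbp and 0 pathway genes were called. The log2 fold change of Cirbp ran from -1.06 to -0.76. That of Hspa1a ran from -1.69 to -0.69, of Hspa1b from -0.57 to -0.06, of Rbm3 from -0.53 to -0.22, of Dnajb1 from -0.33 to -0.16, of Hspb1 from -0.63 to -0.19, of Hsph1 from 0.28 to 0.55 and of Hspa8 from 0.01 to 0.33, none changing sign. Hsp90aa1 ran from -0.0767 to 0.0523 with 1 tumor left out, turning to 0.0523 without WT replicate 3 and to 0.02 without C3-/- replicate 2. Hspd1, at 0.0013, turned to -0.0042 with DESeq2, with its size factors in edgeR and with the replicate block, to -0.0056 with limma-voom, to -0.0002 without a filter and to -0.0587 with the muscle covariate, and ran from -0.0826 to 0.1087 with 1 tumor left out. The number of the 10 genes above the median spread ran from 4 to 6. With 4 tumors a genotype, the exact test of a single value cannot give a p below 0.0286.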
